A study of Homo sapiens with 11 samples.

Results

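Transcripts of 34 enzymes and transporters of glucose metabolism were followed in tumours of mice given vehicle or evexomostat. They were chosen by symbol, from glucose uptake through glycolysis to lactate and pyruvate dehydrogenase, with the enzymes of glycogen and of the pentose phosphate route. All 34 are among the 28152 gene symbols of the count table, and all 34 passed the filter on low counts, which left 16653 tested genes. According to their labels the cells were BT-474, which is a breast cancer line of human origin, positive for hormone receptors and Her2. They were placed with Matrigel in the mammary fat pad of female athymic nude mice, which lack T cells but keep other host cells. Every animal carried an estradiol pellet (0.72 mg, made to last 90 days) before the cells were placed, and tumours entered the study above 95 cubic millimetres. Evexomostat, an inhibitor of methionine aminopeptidase 2 (MetAP2, which removes the first methionine from new proteins), was given at 12 mpk by subcutaneous injection every 4 days in 5% mannitol in water, and vehicle animals received the mannitol alone. There were 6 vehicle and 5 evexomostat libraries, all labelled day 33, each from a piece of a single tumour. The question addressed was which transcripts differ between tumours of treated and vehicle animals.

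Glycolysis splits glucose into pyruvate in the cytosol. Its first part spends ATP and its second part returns it, and pyruvate then goes either to lactate or, through the pyruvate dehydrogenase complex, into mitochondria. Many tumours run this route fast even in oxygen, and several of its genes are known targets of the hypoxia-inducible factors (HIFs), which bind DNA at short elements around the letters ACGTG or GCGTG. Branches from glucose 6-phosphate store glucose as glycogen or feed the pentose phosphate route, which supplies NADPH and ribose.

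Promoters of the 34 genes were searched for those letters on both strands in the 250 bases before the transcript start (RefSeq, GRCh38.p14). An entry was found for 32 of the 34 genes. ACGTG occurred in 14 of these 32 (43.8%), against 22.4% of 12326 tested genes with an entry, and GCGTG in 15 (46.9%), against 44.2%. Among the 32, those with ACGTG had a median log2 fold change of -0.62 (n = 14, from -2.06 to 0.14) and those without it -0.26 (n = 18, from -1.55 to 0.24). The ranges overlapped: PFKFB4 (-1.55) and SLC2A1 (-1.07) had no ACGTG in this window, while PDHB (-0.13) had 3 matches and PDK2 (0.14) had 2. A match is a description of the letters and not a bound site. The genes were chosen with earlier results known, and several are known HIF targets, so their share with ACGTG is no independent test. Whether HIFs had a part in these differences was not tested. Stretches of 30 bases are printed for the 4 genes with the smallest p-values that had an entry, 5′ to 3′ on the gene's strand, with the matching letters in capitals (CACGT and CACGC are ACGTG and GCGTG read on the other strand).
GBE1, chr3:81761785-81761814, minus strand: ccaggtgccagccGCGTGagtgggcggaga
GBE1, chr3:81761741-81761770, minus strand: ctacccgctccggACGTGcgtcccggcatc
PDK1, chr2:172556060-172556089, plus strand: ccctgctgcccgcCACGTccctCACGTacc
ALDOC, chr17:28577116-28577145, minus strand: aagtgcccggCACGTGgtaaagggattgtg
ALDOC, chr17:28576987-28577016, minus strand: cccgcctctgaggGCGTGgtcttgccccgg
ALDOC, chr17:28576915-28576944, minus strand: aggcCACGCccccggaggagtCACGTagct
PGM1, chr1:63593381-63593410, plus strand: cgtagcccccacccgccgtgccctcacccc
The CACGTG in ALDOC reads as ACGTG on both strands. In PDK1 both matches lie in the last 30 bases before the start. The window of PGM1 held neither motif, and its last 30 bases are shown for comparison.

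Library totals ran from 22808033 to 39249329 counts, and the lowest count of any of the 34 genes in any library was 66 (PDK2). Vehicle replicate 001 stood apart from the other vehicle tumours: ribosomal protein genes took 14.5% of its counts and 4.89% to 7.1% of those of the other 5, and its factor from the trimmed mean of M values (TMM, the scaling used for levels here) was 0.86. It was also the lowest vehicle tumour in 23 of the 34 genes, a count not made over all tested genes. The main results are therefore given with and without it. In those 23 genes leaving it out raises the vehicle mean by construction. The vehicle mean also rose without it in ALDOC, PDK1 and GBE1, where it was not the lowest vehicle tumour. Calls made without it are therefore not independent support. The line is known here from its labels, and most of its luminal markers were low. ESR1 had 1 to 17 counts per library and PGR 0 to 5, so the hormone receptors named for the line were near 0 here. ERBB2, the gene of Her2, was at 26.7 to 66.5 CPM (counts scaled to a common library size). Whether the cells were BT-474 was not tested. GATA3, FOXA1, EPCAM, KRT19 and CDH1 were each at 10.2 CPM or less, whereas KRT8 (167 to 562 CPM) and KRT18 (100.4 to 193 CPM) were abundant. Skeletal muscle genes summed to 9.08 to 34.4 CPM in vehicle tumours and to 12.8 to 68.3 CPM in 4 evexomostat tumours, but to 584 CPM in evexomostat replicate 005. All 11 tested genes of that list of 16 had higher estimates under evexomostat (median log2 fold change 2.55), 8 of them at an unadjusted p under 0.05 and 0 past the adjusted threshold. Of its defining genes ACTA1 reached 139.6 CPM and MYH1 99.2 CPM in replicate 005, while CKM had at most 10 counts in any library and MYL1 at most 2. The part of these cells in the results below was not tested. Summed markers of endothelium (10.8 to 22.7 CPM under vehicle, 10.3 to 14.5 under evexomostat), leukocytes (86.5 to 128, 94.2 to 109) and fibroblasts (429 to 2080, 523 to 1110) overlapped between the groups. The adipocyte list summed to 18.1 to 75.5 CPM under vehicle and 17.2 to 40.1 under evexomostat, with 5 of its 10 genes too low to test, and erythroid genes were near 0. Host cells are of mouse, while counts are per human gene symbol, and how mouse reads were treated is not given. These sums therefore need not measure host cells, and their overlap does not compare the tissue make-up of the groups. In such bulk samples fewer cells of a type and less RNA per cell cannot be told apart.

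Along the route, 32 of the 34 genes had a lower estimate in evexomostat tumours (55.4% of all tested genes did), and the median log2 fold change was -0.54, against -0.04 over all 16653 tested genes. With upper quartile scaling it was 30 of 34, against 49.2% of all tested genes. The larger differences were in the glucose transporters SLC2A1 and SLC2A3, in hexokinase 2, in the PFKFB3 and PFKFB4 enzymes that set the level of fructose 2,6-bisphosphate, and in pyruvate dehydrogenase kinase 1. The 3 phosphofructokinases themselves, lactate dehydrogenase B and the pyruvate dehydrogenase subunits were close to their vehicle levels.

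With all 11 libraries, 0 of the 34 genes passed an adjusted p of 0.05 in edgeR's quasi-likelihood test, where 0.606% of all genes did and 0.432% did so with a lower level. At an unadjusted p under 0.05 there were 19 of 34 (13.4% of all tested genes passed that level and 8.55% were lower), all 19 lower. DESeq2 called 8 genes (3.9% of all genes, 2.7% lower) and limma-voom with sample quality weights 13 (6.36% of all genes, 4.05% lower), all lower. Without vehicle replicate 001, edgeR called 12 of 34, all lower, against 5.22% of all genes (3.24% lower): SLC2A1, SLC2A3, HK2, PFKFB3, PFKFB4, ALDOA, ALDOC, GAPDH, PDK1, PGM1, GBE1 and PGD. All 8 genes called by DESeq2 with the full set were among these 12. When evexomostat replicate 005 was left out as well, only SLC2A1 remained past the threshold (2.57% of all genes did).

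**Figure D1:**
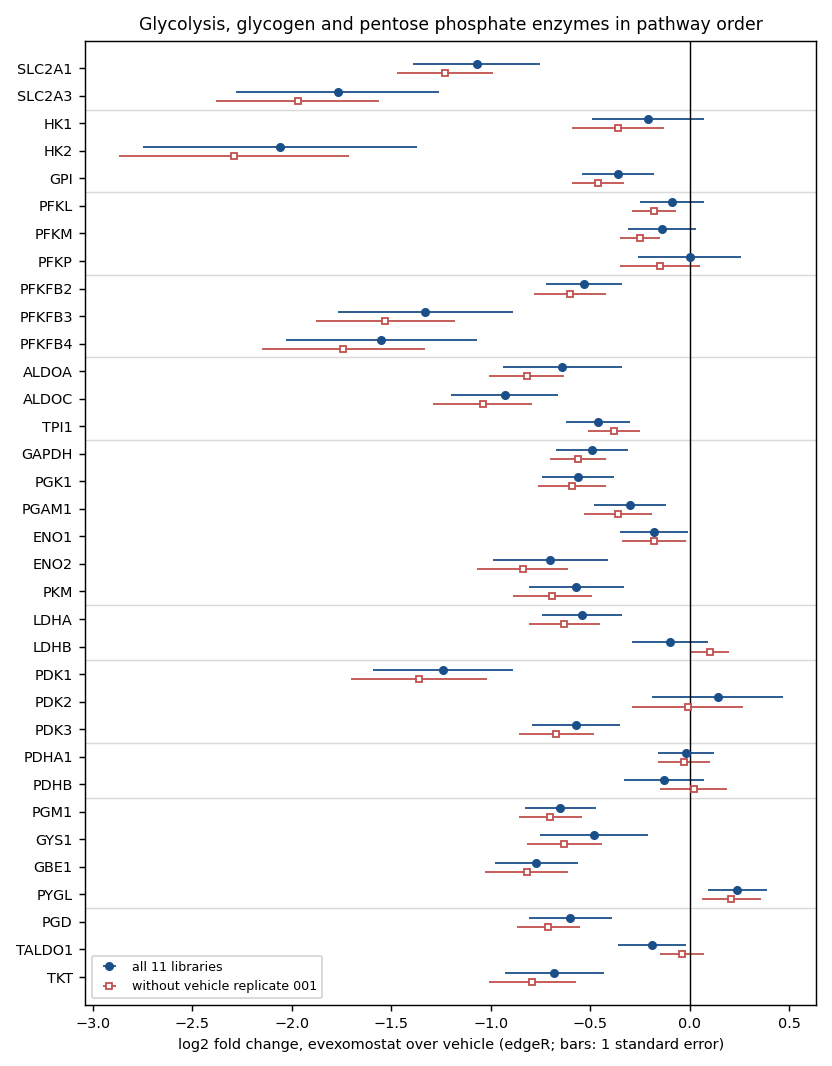
Log2 fold change of each gene (x axis, evexomostat over vehicle, edgeR) in pathway order from glucose uptake at the top to the pentose phosphate route at the bottom, with bars of 1 standard error. Blue circles use all 11 libraries and open red squares leave out vehicle replicate 001. Most symbols lie left of 0, the farthest being HK2 at -2.06, and PYGL lies right of 0 in both.

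Glucose enters through the facilitative transporters SLC2A1 (GLUT1) and SLC2A3 (GLUT3). SLC2A1 was at 191, 133, 216, 169.8 and 195 CPM in the evexomostat tumours (replicates 002, 003, 004, 005 and 007, an order kept throughout), and at 139, 392 and 565 CPM in the lowest, median and highest vehicle tumour. The lowest was vehicle replicate 001, and the other 5 vehicle tumours, at 242 CPM or more, all lay above the evexomostat range. The log2 fold change was -1.07 (standard error 0.32, adjusted p by edgeR 0.158), a level 2.09-fold lower, and -1.23 (standard error 0.24, adjusted p by edgeR 0.0175) without that tumour. SLC2A3 was narrow under evexomostat, at 37.4, 36, 46.2, 42.9 and 41.2 CPM, while vehicle tumours spanned 27.7 to 325 CPM with a median of 131. Vehicle replicates 001 and 006 lay below every treated tumour and the other 4 above every one. Its log2 fold change was -1.77 (standard error 0.51, adjusted p by edgeR 0.143), and -1.97 (standard error 0.41, adjusted p by edgeR 0.0239) without vehicle replicate 001.

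Hexokinases trap glucose in the cell as glucose 6-phosphate. HK2, the inducible form, was at 77.7, 36.7, 35.1, 45.1 and 50 CPM in the evexomostat tumours, and at 23, 131 and 658 CPM in the lowest, median and highest vehicle tumour. Vehicle replicates 001 and 006 were within or below the treated range, and vehicle replicate 007 exceeded every other tumour by a wide margin. HK2 had the largest estimate of the set, a log2 fold change of -2.06 (standard error 0.69, adjusted p by edgeR 0.206), and -2.29 (standard error 0.58, adjusted p by edgeR 0.043) without vehicle replicate 001. HK1, the housekeeping form, ranged from 369 to 1119.8 CPM under vehicle and from 382 to 959 under evexomostat, with a log2 fold change of -0.21 (standard error 0.28, adjusted p by edgeR 0.814). GPI, which turns glucose 6-phosphate into fructose 6-phosphate, was at 342 to 379 CPM in evexomostat tumours. All vehicle tumours but replicate 001 (279 CPM) were at 382 CPM or more, and the log2 fold change was -0.36 (standard error 0.18, adjusted p by edgeR 0.428).

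**Figure D2:**
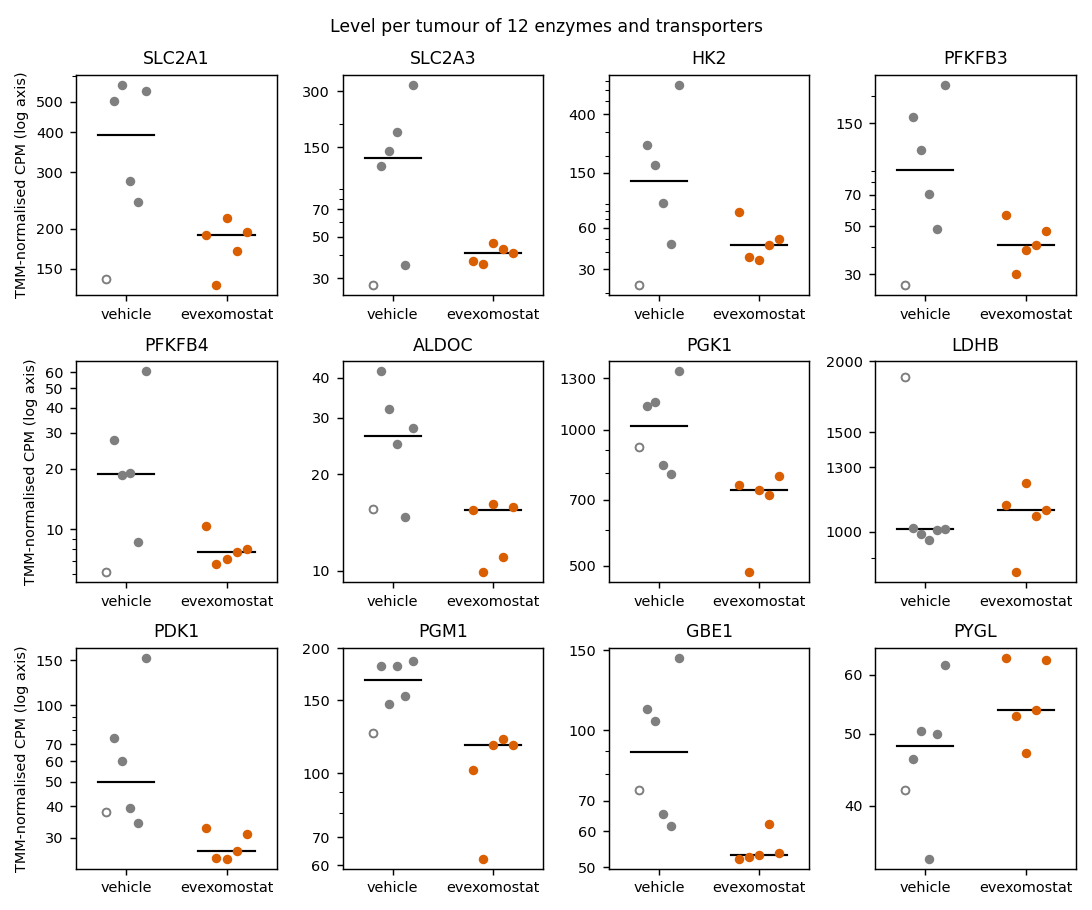
TMM-normalised CPM (log axis) of 12 genes in each tumour, with vehicle tumours in grey, evexomostat tumours in orange, a line at each group's median and an open circle for vehicle replicate 001. Evexomostat points are tightly grouped in SLC2A3 (36 to 46.2 CPM), where vehicle points run from 27.7 to 325.

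Phosphofructokinase commits the sugar to glycolysis, and its 3 genes did not pass the test in any of the alternatives run. PFKL, the liver form, had a log2 fold change of -0.09 (standard error 0.16, adjusted p by edgeR 0.872), with evexomostat tumours at 107 to 131 CPM inside the vehicle range of 84 to 175. PFKM, the muscle form, was at -0.14 (standard error 0.17, adjusted p by edgeR 0.799). PFKP, the platelet form, differed by -0.004 (standard error 0.26, adjusted p by edgeR 0.997), and upper quartile scaling turned its sign.

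The bifunctional PFKFB enzymes make and remove fructose 2,6-bisphosphate, the strongest activator of phosphofructokinase. PFKFB3, the form with the highest kinase activity, was at 56.5, 30.2, 38.8, 41.2 and 47.9 CPM under evexomostat and at 26.8, 91.7 and 227 CPM in the lowest, median and highest vehicle tumour. Only vehicle replicates 001 and 006 fell within the evexomostat range or below it. The log2 fold change was -1.33 (standard error 0.44, adjusted p by edgeR 0.206), and -1.53 (standard error 0.35, adjusted p by edgeR 0.0326) without vehicle replicate 001. PFKFB4 was lower in abundance, at 10.4, 6.76, 7.1, 7.71 and 7.99 CPM under evexomostat against 6.16, 18.8 and 60.5 CPM at the vehicle minimum, median and maximum. The same 2 vehicle tumours overlapped with the treated ones. Its log2 fold change of -1.55 (standard error 0.48, adjusted p by edgeR 0.169) became -1.74 (standard error 0.41, adjusted p by edgeR 0.0332) without vehicle replicate 001. PFKFB2, the heart form, was at 26.8 to 33.7 CPM against 31.6 to 68.4, a log2 fold change of -0.53 (standard error 0.19, adjusted p by edgeR 0.242).

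Aldolase cleaves fructose 1,6-bisphosphate and triose phosphate isomerase (TPI1) interconverts its triose phosphate products. ALDOC was at 15.5, 9.92, 16.1, 11 and 15.8 CPM in treated tumours and at 14.7, 26.4 and 41.9 CPM in the lowest, median and highest vehicle tumour. Vehicle replicates 001 and 006 lay within the evexomostat range, and the other 4 were above it. The log2 fold change was -0.93 (standard error 0.27, adjusted p by edgeR 0.139), and -1.04 (standard error 0.25, adjusted p by edgeR 0.0346) without vehicle replicate 001. ALDOA, the form of muscle and most tissues, was at 35.7, 17.4, 29.4, 30.4 and 39.7 CPM under evexomostat. In vehicle tumours it was at 15, 54.7 and 59.8 CPM (lowest, median, highest), and all but replicate 001 lay above every treated tumour. Its log2 fold change was -0.64 (standard error 0.30, adjusted p by edgeR 0.386), and -0.82 (standard error 0.19, adjusted p by edgeR 0.0313) without that tumour. TPI1 differed by -0.46 (standard error 0.16, adjusted p by edgeR 0.227), from 1089 to 1556 CPM against 1508 to 2363, and here vehicle replicate 001 was the highest tumour.

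From GAPDH onward the route yields NADH and ATP. GAPDH, the dehydrogenase often used as a loading control, was the most abundant of the 34, at 6299, 5897, 6375, 5366 and 6960.1 CPM under evexomostat and at 6288, 8384 and 12017 CPM in the lowest, median and highest vehicle tumour. Again only vehicle replicate 001 lay within the treated range, and the other 5 were at 7754 CPM or more. GAPDH differed by -0.49 (standard error 0.18, adjusted p by edgeR 0.26), and by -0.56 (standard error 0.14, adjusted p by edgeR 0.0385) without vehicle replicate 001. PGK1, the first ATP-forming kinase, did not overlap between groups: 756, 484, 734, 715 and 789.8 CPM under evexomostat against 798, 1021 and 1345 CPM. The gap between the nearest tumours was small, and the log2 fold change was -0.56 (standard error 0.18, adjusted p by edgeR 0.191).

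The remaining enzymes of this phase were also lower on average. ENO2, the neuronal enolase, was at 217 to 318 CPM against 190.0 to 661 (log2 fold change -0.70, standard error 0.29, adjusted p by edgeR 0.309). PKM, which makes pyruvate, was at 601 to 931 CPM against 649.6 to 1660.0 (log2 fold change -0.57, standard error 0.24, adjusted p by edgeR 0.321). PGAM1, the mutase, and ENO1, the common enolase, had smaller estimates of -0.30 (SE 0.18) and -0.18 (SE 0.17), with edgeR adjusted p-values of 0.515 and 0.718. None of these 4 was called without vehicle replicate 001 either.

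Lactate dehydrogenase reduces pyruvate to lactate. LDHA, whose product favours that direction, was at 468 to 781 CPM under evexomostat and at 612 to 1241 under vehicle, a log2 fold change of -0.54 (standard error 0.20, adjusted p by edgeR 0.258). LDHB was at 849 to 1222 CPM against 969.8 to 1876, a log2 fold change of -0.10 (standard error 0.19, adjusted p by edgeR 0.887). Its vehicle range rested on replicate 001, since the other 5 vehicle tumours lay between 969.8 and 1017 CPM. Without it the estimate was 0.10 (standard error 0.10, adjusted p by edgeR 0.578), a change of sign.

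Pyruvate dehydrogenase kinases phosphorylate and switch off the complex that sends pyruvate into mitochondria. PDK1 was at 32.9, 25, 24.8, 26.7 and 30.9 CPM in evexomostat tumours, all below the vehicle tumours, which were at 34.3, 49.8 and 153 CPM (lowest, median, highest). The groups did not overlap, with vehicle replicate 006 nearest to the treated tumours. The log2 fold change was -1.24 (standard error 0.35, adjusted p by edgeR 0.134), a level 2.37-fold lower, and -1.36 (standard error 0.34, adjusted p by edgeR 0.0429) without vehicle replicate 001. PDK3 was at 12.3 to 17.5 CPM against 12.4 to 30.5 (log2 fold change -0.57, standard error 0.22, adjusted p by edgeR 0.281). PDK2 went the other way on average, with an estimate of 0.14 (standard error 0.33, adjusted p by edgeR 0.908) that was -0.01 without vehicle replicate 001. The subunits of the E1 enzyme of that complex gave values near 0. PDHA1, the alpha subunit that these kinases phosphorylate, was at 209.7, 199, 201, 181 and 245 CPM under evexomostat against 162, 209.9 and 263 CPM in the lowest, median and highest vehicle tumour, with complete overlap (log2 fold change -0.02, standard error 0.14, adjusted p by edgeR 0.976). PDHB, the beta subunit, differed by -0.13 (standard error 0.20, adjusted p by edgeR 0.853).

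Among the glycogen enzymes, PGM1, which interconverts glucose 1-phosphate and glucose 6-phosphate, was at 102, 62.1, 117, 121 and 117 CPM in evexomostat tumours. All 6 vehicle tumours were higher, at 125, 167 and 186 CPM (lowest, median, highest), with replicate 001 nearest. The log2 fold change was -0.65 (standard error 0.18, adjusted p by edgeR 0.127), and -0.70 (standard error 0.16, adjusted p by edgeR 0.0328) without vehicle replicate 001. GBE1, the branching enzyme, had the smallest p-value of the 34 genes. It was at 52.2, 52.7, 53.3, 62.2 and 53.8 CPM under evexomostat and at 61.5, 89.4 and 144 CPM under vehicle, so that only evexomostat replicate 005 reached the lowest vehicle tumour. GBE1 differed by -0.77 (standard error 0.21, adjusted p by edgeR 0.124), and by -0.82 (standard error 0.21, adjusted p by edgeR 0.0408) without vehicle replicate 001.

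GYS1, the glycogen synthase of muscle and most tissues, was at 34.4, 25.7, 32.4, 33.6 and 36 CPM, against 18.6, 44 and 79.8 CPM in the lowest, median and highest vehicle tumour. Vehicle replicate 001 was the lowest of all 11 and the other vehicle tumours were all above the treated ones (log2 fold change -0.48, standard error 0.27, adjusted p by edgeR 0.475). PYGL, the liver form of the phosphorylase that breaks glycogen down, was at 63.2, 52.9, 47.1, 53.8 and 62.8 CPM against 34, 48.1 and 61.9 CPM. It was higher on average under evexomostat, with overlapping groups and a log2 fold change of 0.24 (standard error 0.15, adjusted p by edgeR 0.544), and stayed above 0 in every alternative run.

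In the pentose phosphate route, PGD makes NADPH, and TKT and TALDO1 return sugars to glycolysis. PGD was at 161, 147, 209, 152 and 178 CPM in treated tumours and at 153, 277 and 359 CPM in the lowest, median and highest vehicle tumour. Vehicle replicates 001 and 006 lay within the treated range and the other 4 above it. Its log2 fold change was -0.60 (standard error 0.21, adjusted p by edgeR 0.218), and -0.71 (standard error 0.16, adjusted p by edgeR 0.0326) without vehicle replicate 001. TKT ranged from 455 to 547 CPM under evexomostat and from 449.8 to 1409.7 under vehicle (log2 fold change -0.68, standard error 0.25, adjusted p by edgeR 0.251), and TALDO1 differed by -0.19 (standard error 0.17, adjusted p by edgeR 0.698).

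Tumours of the same group moved up or down across many of the 34 genes at once. Vehicle replicate 007 was the highest vehicle tumour in 18 genes, and the highest of all 11 in 17. At the other end, evexomostat replicate 003 was the lowest treated tumour in 23 genes. The median deviation of the 34 genes from their means was 0.51 on the log2 scale in vehicle replicate 007 and -0.09 in replicate 006, while replicate 001 was at -0.43. In evexomostat tumours it was -0.51 in replicate 003 and -0.24 to -0.10 in the other 4. These counts and deviations were not taken over all tested genes, so whether they are particular to the 34 genes was not tested. The spread was wider under vehicle: the median coefficient of variation of the 34 genes was 32.7% there and 14.7% under evexomostat, against 28.8% and 16% over all tested genes. It was larger under vehicle in 32 of 34 genes, and in 13456 of 16653 tested genes, so a wider spread of vehicle tumours was a feature of the whole table. Without vehicle replicate 001 the vehicle median was 23.1% for the 34 genes and 19.6% for all tested genes, and the spread was larger under vehicle in 26 of 34 and in 10470 of 16653.

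**Figure D3:**
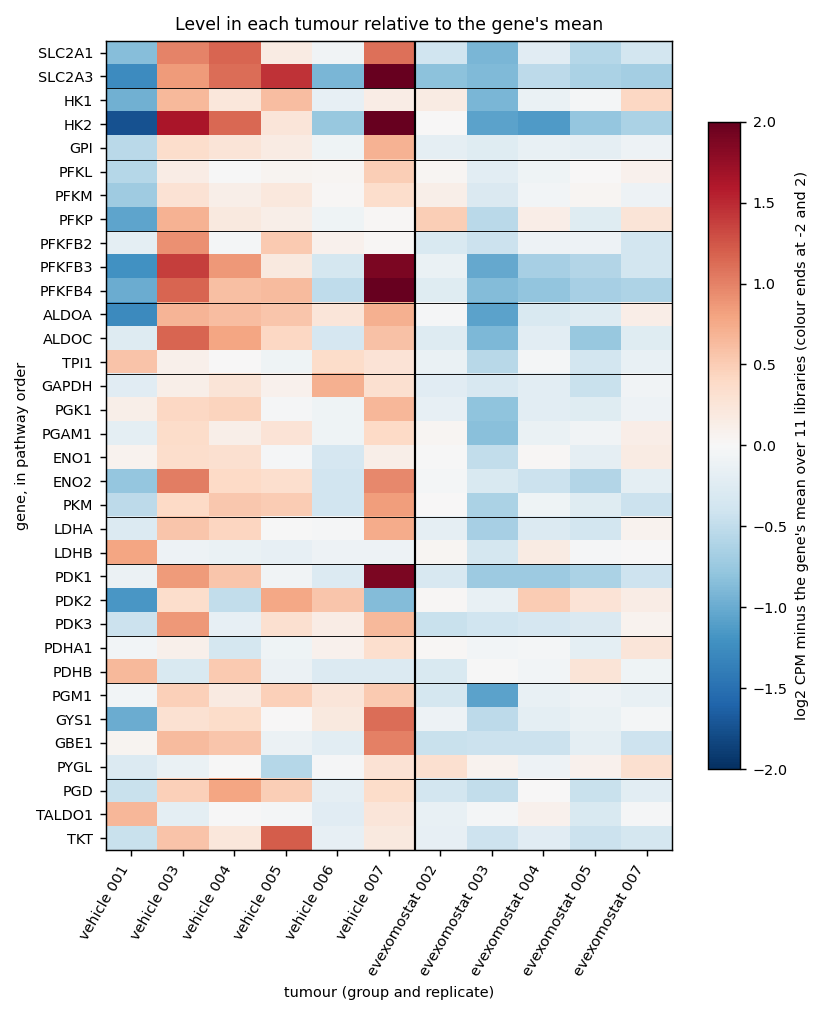
Log2 CPM of each gene (rows, in pathway order) in each tumour (columns) relative to the gene's mean over the 11 libraries, red above and blue below, with colours ending at -2 and 2. Vehicle replicate 007 is the reddest column and vehicle replicate 001 and evexomostat replicate 003 are mostly blue.

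Counts of non-overlapping genes depended on the scaling. In TMM-normalised CPM, 3 of 34 genes (PGK1, PDK1 and PGM1) were lower in every evexomostat tumour than in any vehicle tumour, where 1.64% of tested genes were, and 0 were higher in every one (1.33% of tested genes). In the deposited RPM, reads scaled to the library total with no TMM factor, the count was 0 of 34 (0.787% of tested genes lower, 2.58% higher). Without vehicle replicate 001 it was 9 of 34 in TMM-normalised CPM (4.35% of tested genes lower, 3.98% higher), adding SLC2A1, GPI, PFKFB2, ALDOA, GAPDH and GYS1. All 9 were lower under evexomostat. In each added gene vehicle replicate 001 was the lowest vehicle tumour, so the separation follows from leaving it out.

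Levels of different genes can be compared roughly per kilobase of annotated exon, with all exons of a gene joined. The annotation used for counting is not given, so these lengths may differ from those counted. By this measure GAPDH led with 3900.0 ± 866 CPM per kb (SD, n = 6) in vehicle tumours. It was followed by ENO1 at 952 ± 157, TPI1 at 859 ± 146 and LDHB at 723 ± 226. PDK2 was the least abundant, at 1.9 ± 0.974. ALDOA, at 19.8 ± 7.06, was close to PFKM upstream (20 ± 4.53) and far below TPI1. GAPDH, TPI1, PGK1, PGAM1, ENO1, PKM, LDHA, LDHB and ALDOA have many processed pseudogenes, and how reads fitting several places were counted is not given, so the levels of these genes are uncertain. Within the glucose transporters SLC2A1 made up 75.5% ± 11.3 (SD, n = 6) of the CPM per kb of the pair under vehicle and 81.1% ± 2.06 (SD, n = 5) under evexomostat. Among the 3 PDK genes, PDK1 held 30.4% ± 11.3 under vehicle and 20.7% ± 2.86 under evexomostat. These shares rest on the lengths used, 14253 bases for PDK1 and 2513 for PDK3. Before division by length, PDK1 was the higher of these under vehicle, at a mean of 66.5 CPM against 20.5.

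Ratios of partner genes within a tumour do not depend on library scaling. The 10 ratios were compared with exact two-sided permutation tests over the 462 splits, for which 0.00433 is the smallest possible p, and 9 of 10 were lower under evexomostat. The log2 ratio of PDK1 to its target PDHA1 was -2.67, -2.99, -3.02, -2.76 and -2.98 in evexomostat tumours and -2.68, -1.94 and -0.78 in the lowest, median and highest vehicle tumour. The treated tumours lay below the vehicle tumours except that evexomostat replicate 002 was just above vehicle replicate 006, with a difference in means of -1.03 (exact permutation p 0.00866, 0.0866 adjusted over the 10 ratios). The ratio of GYS1 to PYGL, synthase to phosphorylase, was -0.87, -1.04, -0.54, -0.68 and -0.80 under evexomostat and -1.18, -0.05 and 0.37 under vehicle. Only vehicle replicate 001 was that low, and the difference was -0.62 (exact permutation p 0.0433, adjusted 0.216). With 1 library left out at a time its unadjusted exact permutation p stayed under 0.05 in 2 of 11 cases and reached 0.0857.

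No ratio passed after adjustment over the 10. LDHA to LDHB differed by -0.45 (exact permutation p 0.177, adjusted 0.361). Without vehicle replicate 001 its difference was -0.71, all 5 treated tumours were below all 5 others, and the exact permutation p was 0.00794, the smallest that 5 against 5 can give. The same held for GYS1 to PYGL, at -0.82 (exact permutation p 0.00794). In both ratios the tumour left out was the only vehicle tumour as low as the treated ones, so the separation follows from leaving it out. HK2 to HK1 (-1.14, exact permutation p 0.113), PFKFB4 to PFKFB2 (-0.69, p 0.19), ENO2 to ENO1 (-0.39, p 0.216), ALDOC to ALDOA (-0.30, p 0.307), SLC2A3 to SLC2A1 (-0.38, p 0.416), PFKM to PFKL (-0.04, p 0.554) and PFKP to PFKL (0.10, p 0.649) had adjusted p-values of 0.361 or more. PFKM to PFKL kept within a narrow band in all 11 tumours, from -0.64 to -0.31.

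**Figure D4:**
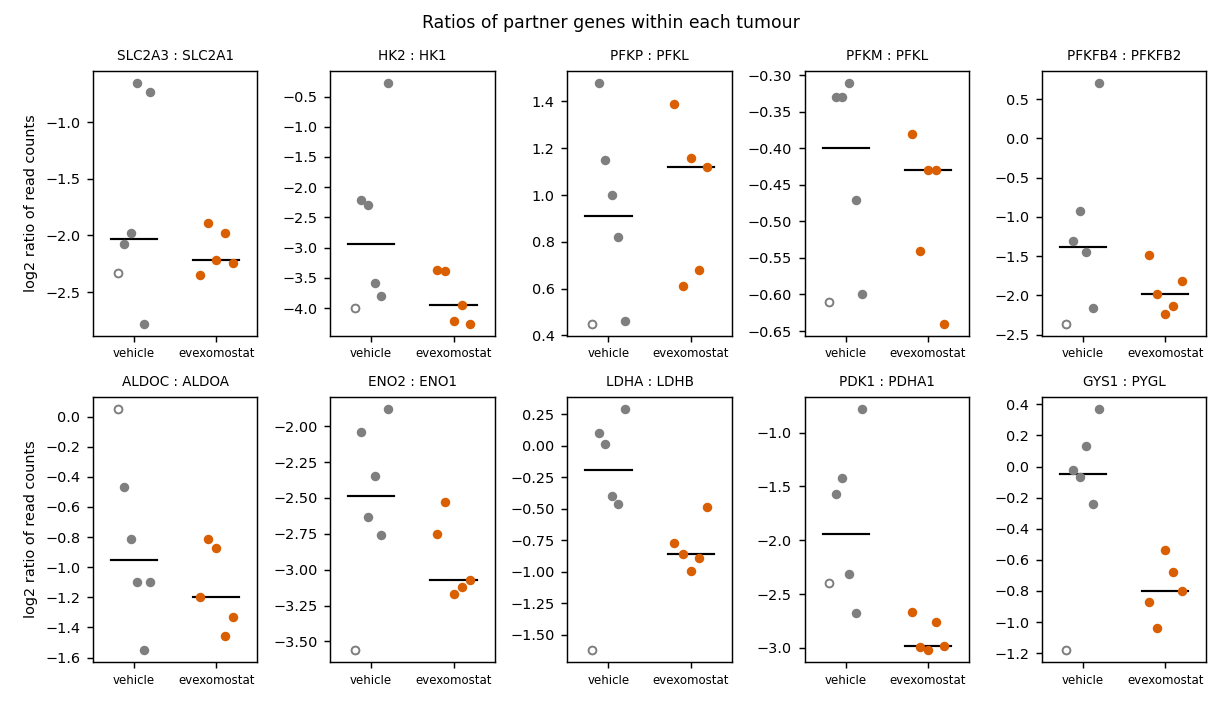
Log2 ratio of read counts of 10 pairs of genes in each tumour (y axis, a separate scale per panel), with vehicle tumours in grey, evexomostat tumours in orange, lines at the medians and an open circle for vehicle replicate 001. In GYS1 to PYGL and LDHA to LDHB the open circle, at -1.18 and -1.62, is the only vehicle point as low as the orange ones.

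Other genes of these routes were taken from lists of 75 genes, of which 62 were tested. In edgeR's test 2 of the 62 were called, both lower, SLC2A6 being described here. Of all tested genes 0.606% were called, and 0.432% were called lower. The median log2 fold change of the 62 was -0.10. SLC2A6, another facilitative sugar transporter, fell from a mean of 69.4 ± 8.42 CPM (SD, n = 6) under vehicle to 39.6 ± 6.89 (SD, n = 5), which is a log2 fold change of -0.81 (standard error 0.14, adjusted p by edgeR 0.0301). It stayed past the threshold without any 1 vehicle tumour, and in 0 of 5 cases without 1 evexomostat tumour (edgeR adjusted p 0.0619 to 0.112). The groups did not overlap in 3 of the 62, all lower, where 1.64% of all tested genes were lower with no overlap. SLC2A6 was among these, and so was UGP2, which makes the UDP-glucose used for glycogen. UGP2 was at 195 ± 35.4 against 134 ± 13.8 CPM (log2 fold change -0.55, standard error 0.14, adjusted p by edgeR 0.11). Without vehicle replicate 001 UGP2 was called as well (edgeR adjusted p 0.0349).

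By list, 7 of 8 other glucose transporters were lower (median log2 fold change -0.67), as were 5 of 8 other glycolytic genes (-0.12), 8 of 10 genes of pyruvate entry (-0.16), 15 of 23 other glycogen genes (-0.04) and 4 of 11 other pentose phosphate genes (0.05), where 55.4% of all tested genes were lower. Without vehicle replicate 001 these were 6 of 8 (-0.67), 5 of 8 (-0.05), 5 of 10 (-0.03), 15 of 23 (-0.08) and 5 of 11 (0.08), in the same order. PYGM and ENO3, the muscle forms of phosphorylase and enolase, were highest in evexomostat replicate 005, the tumour with the highest sum of muscle genes. PYGM reached 14.2 CPM there, and the part of that tumour in its log2 fold change of 2.05 (standard error 0.67, adjusted p by edgeR 0.195) was not tested. Of the gluconeogenic genes, PCK2, the mitochondrial enzyme that makes phosphoenolpyruvate, was at 33.1 ± 9.05 and 52.0 ± 6.38 CPM (log2 fold change 0.65, standard error 0.18, adjusted p by edgeR 0.124), and was called higher without vehicle replicate 001 (0.79, edgeR adjusted p 0.0123).

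Hypoxia-induced genes outside these routes were also lower on average. In this list of 20, which earlier results had already shown to be lower, all 20 estimates were below 0, with a median of -0.67. The share below 0 over all tested genes was 55.4%. In edgeR's test 1 of the 20 (P4HA1) was called, against 0.606% of all tested genes. The median deviation of the 20 genes was highest in vehicle replicate 007, at 1.14, which also led the 34 enzymes. The vehicle tumours had the same order in both sets, down to vehicle replicate 001 at -0.25 here and -0.43 in the enzymes. Treated tumours ranked differently in the 2 sets: evexomostat replicate 004, the lowest here at -0.52, was at -0.15 in the enzymes. Whether oxygen supply differed between the tumours was not tested.

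In the authors' deposited table, SLC2A3 and PDK1 alone of the 34 genes have an adjusted p under 0.05 (log2 fold changes -1.68 and -1.15, adjusted p 0.0238 and 0.0416), against 0.952% of its 28152 genes. Of the 34, 29 have a negative log2 fold change in the authors' deposited table. Of its 28152 genes, a total that includes genes too low to test here, 10543 do.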

How the data were processed

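Total RNA of tumour pieces was sequenced as paired 150-base reads, per the labels' protocols. Per the submitters' processing notes, STAR 2.7.5c, featureCounts and edgeR were used with build GRCh37 (hg19). How mouse reads and strand were treated, and which annotation served, is not given in the sources used here. The deposited counts are whole reads per gene symbol, and the deposited RPM values are those counts scaled to the total of each library. The authors' deposited table holds log2 fold changes and p-values from a test whose settings are not stated. Columns were matched to libraries by the code in each sample's description.

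Genes passing filterByExpr (minimum count 10, minimum total 15) were compared across all 11 libraries with TMM factors and edgeR's quasi-likelihood test (edgeR 4.0.16, R 4.3.3), Benjamini-Hochberg adjusted over 16653 genes at 0.05. Standard errors are those implied by the F statistic. Ratios used exact permutation tests in scipy 1.17.1. Alternatives were DESeq2 1.42.0, limma 3.58.1 (voom with quality weights), other scaling, no filter, a replicate block and leaving out libraries. The count tests were tested on simulated counts with 200 of 16653 genes changed, where edgeR recovered 60% of genes changed by 1 log2 unit and 94% of those changed by 2. Exon lengths came from GENCODE 29, for levels per kb only. Whether libraries of a group are separate animals is not stated beyond their titles, so p-values measure the spread between these samples.

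Genes given a value for every treated tumour were those called, those whose groups did not overlap, those in a ratio with an unadjusted p under 0.05, and those whose call changed without vehicle replicate 001. Of other pathway genes, those called or not overlapping were named, except 1 that is not reported here. PCK2, PYGM, ENO3 and the genes of the closing observations were chosen after their values were seen. The 34 genes, lists and ratios were chosen with earlier results of these data known.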

Additional observations from a re-analysis of the deposited data

Results flagged for a closer look

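In 68 groups of 5 or 6 tumours, 7 of the 34 genes' highest or lowest values stood apart from the rest of their group by Dixon's criterion at 95%, where about 3.4 would by chance. HK2 reached 658 CPM in vehicle replicate 007, where the other 5 vehicle tumours had 23 to 240.2 CPM. PDK1 was also highest there, at 153 CPM against 34.3 to 74.3. In vehicle replicate 001, ALDOA was at 15 CPM against 43.0 to 59.8, and LDHB at 1876 CPM against 969.8 to 1017. PGK1 had its lowest treated value, 484 CPM, in evexomostat replicate 003, the other 4 being at 715 to 789.8 CPM. PDK3 was at 17.5 CPM in evexomostat replicate 007, against 12.3 to 13.6, and GBE1 at 62.2 CPM in evexomostat replicate 005, against 52.2 to 53.8.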

How the results depend on the processing

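The choice without both vehicle replicate 001 and evexomostat replicate 005, and the spread without vehicle replicate 001, were added after the data had been seen. The 0 called enzymes stayed 0 with relative log expression, upper quartile scaling and no count filter, and were 8 under DESeq2, 13 under quality weights and 1 without both libraries, all lower. Called genes among all tested, 101 (29 higher, 72 lower), were 649 (200, 449) under DESeq2, 1059 (384, 675) under quality weights and 431 (169, 262) without both libraries, and upper quartile scaling gave 42 lower. In simulated data 18.2% of DESeq2's calls were false, against 2.53% of edgeR's and 2.6% of those under quality weights. The simulated counts had the same spread in both groups and no outlying library, unlike these tumours.

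Both groups have tumours numbered 003, 004, 005 and 007. Deviations from the group means had correlations of -0.272, 0.066, 0.049 and -0.10 within these numbers, which gives no pairing of the tumours. Fitted with a replicate block, these 8 libraries gave calls for 6 of the 34 enzymes (0.645% of all tested genes), and the same libraries without the block 14, with 733 of all tested genes (4.42%, 225 higher and 508 lower). Other genes of the routes (2 called) were 1 with the block (0.645% of all tested genes), upper quartile scaling (70 of all tested genes) or no filter (106). They were 4 under DESeq2 (3.9%) and without both libraries (2.57%), 5 without the block (4.42%) and 6 under quality weights (6.36%). Of the TCA cycle genes 1 was called in the 8 libraries without the block. The hypoxia genes (1 called) were 7 under DESeq2 (3.9% of all tested genes) and 10 under quality weights (6.36%). They were 7 with the block (0.645%), 11 without it (4.42%) and 2 with no filter (106 of all genes in that fit). Non-overlapping enzymes (3) were 0 in RPM. Without both libraries they were 10, but the share over all tested genes was not counted there, so this number cannot be judged.

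Leaving out each library gave 0 to 12 called enzymes, all lower, with 0 in every case but vehicle replicate 001. The ranges were 1 to 865 of all tested genes (1 to 328 higher, 0 to 537 lower), 0 to 5 other genes of the routes, 0 to 8 hypoxia genes and 3 to 9 non-overlapping enzymes. The 865 came without vehicle replicate 001, and leaving out evexomostat replicate 002, 005 or 007 gave 2, 1 and 3. The ratio PDK1 to PDHA1 ranged from -1.19 to -0.81 and stayed under an unadjusted exact permutation p of 0.05 in all 11. GYS1 to PYGL ranged from -0.82 to -0.511, LDHA to LDHB from -0.709 to -0.327, ENO2 to ENO1 from -0.594 to -0.258 and PFKP to PFKL from -0.001 to 0.215. Without both libraries LDHA to LDHB was -0.685 and GYS1 to PYGL -0.847 (exact permutation p 0.0159 each).

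Signs of estimates near 0 turned, none past the threshold. PFKP was 0.042 and PDHA1 0.028 with upper quartile scaling. Under quality weights LDHB was 0.128, PDHA1 0.035 and PDHB 0.011. LDHB was 0.065 with the block and 0.077 without it, and PDHB 0.059 and 0.021. Without both libraries LDHB was 0.097, PDK2 -0.042, PDHA1 0.010, TALDO1 0.007 and PFKL, with no change of sign, -0.20. Leave-one-out ranges were -0.182 to 0.015 for PFKL, -0.245 to -0.036 for TALDO1, -0.146 to 0.162 for PFKP, -0.152 to 0.102 for LDHB, -0.010 to 0.346 for PDK2, -0.086 to 0.055 for PDHA1 and -0.206 to 0.020 for PDHB. The cause of these changes was not tested.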

Other observations

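The TCA cycle, which takes over from pyruvate dehydrogenase, was lower on average in 14 of its 16 listed genes, with a median log2 fold change of -0.22 (-0.11 without vehicle replicate 001, and 55.4% of all tested genes were lower), and 0 passed edgeR's threshold (1 at an unadjusted p under 0.05, SUCLA2, and 0 under DESeq2). Its range was -0.57 (IDH3A, standard error 0.27, adjusted p by edgeR 0.38) to 0.07 (SUCLG1). TXNIP, a glucose-responsive gene that restrains glucose uptake, averaged 1561 ± 295 CPM (SD, n = 6) in vehicle tumours and 1516 ± 339 (SD, n = 5) in treated ones, which is a log2 fold change of -0.04 (standard error 0.19, adjusted p by edgeR 0.956). Its relative ARRDC4 was at 114 ± 21.5 and 82.1 ± 17.4 CPM (log2 fold change -0.47, standard error 0.18, adjusted p by edgeR 0.267).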
